A study of Mus musculus with 8 samples.

Results

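The adaptive response to low oxygen reaches well beyond the enzymes of glycolysis. The 10 genes described here are known targets of that response outside glycolysis: Ndrg1, Ndufa4l2, Ankrd37, Adm, Ddit4, Mxi1, Car9, Bhlhe40, Higd1a and Ero1l. All 10 were found by symbol among the 13637 genes of the deposited table. They were chosen with results of the comparison below already known, Ndufa4l2 and Ndrg1 being among its largest differences, so their values are a description and no test is given for them.

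RNA-seq of polyA RNA was done on whole hearts of mouse embryos at E9.5. The 4 GOF samples have the genotype Bmp2GOF;Nkx2.5-Cre, a Bmp2 gain-of-function allele together with Nkx2.5-Cre, which acts in cardiac progenitors and their descendants. The 4 WT samples are labelled wild type. Whether WT embryos carried Cre, and whether a sample was 1 embryo or a pool, is not given in the sources used here, so differences are read against the spread between samples, which may be technical.

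In cells with enough oxygen, prolyl hydroxylases mark the alpha subunits of hypoxia-inducible factor (HIF) for destruction by the VHL ubiquitin ligase. In low oxygen the alpha subunit persists, pairs with ARNT and binds short elements with the core ACGTG or GCGTG. The early mouse heart develops in low oxygen, and HIF signalling is known to be needed for its growth. The targets taken up here act in several places: secreted and cell-surface proteins (Adm, Car9), growth and MYC control (Ddit4, Mxi1, Ndrg1), transcription (Bhlhe40), mitochondria (Ndufa4l2, Higd1a), the endoplasmic reticulum (Ero1l) and the nucleus (Ankrd37).

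RefSeq promoter windows, from 250 bases before to 50 bases after an annotated start (GRCm38.p6), were matched for 7 of the 10 genes. They are shown because the core of the HIF-binding element can be read in them. In each, capitals mark ACGTG or GCGTG, read on either strand (on the opposite strand they appear as CACGT and CACGC).
Ankrd37: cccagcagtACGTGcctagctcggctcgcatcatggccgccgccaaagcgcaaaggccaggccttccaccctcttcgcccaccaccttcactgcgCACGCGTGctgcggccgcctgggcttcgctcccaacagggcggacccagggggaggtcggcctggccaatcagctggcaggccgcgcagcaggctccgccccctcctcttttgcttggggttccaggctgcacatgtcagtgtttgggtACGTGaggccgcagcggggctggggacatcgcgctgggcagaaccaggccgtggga
Ero1l: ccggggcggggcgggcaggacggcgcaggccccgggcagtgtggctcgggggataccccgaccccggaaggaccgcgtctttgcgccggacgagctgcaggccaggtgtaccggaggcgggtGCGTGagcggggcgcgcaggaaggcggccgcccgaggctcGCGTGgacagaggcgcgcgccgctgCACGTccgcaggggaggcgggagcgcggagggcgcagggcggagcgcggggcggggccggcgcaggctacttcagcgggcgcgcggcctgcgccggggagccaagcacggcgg
Higd1a: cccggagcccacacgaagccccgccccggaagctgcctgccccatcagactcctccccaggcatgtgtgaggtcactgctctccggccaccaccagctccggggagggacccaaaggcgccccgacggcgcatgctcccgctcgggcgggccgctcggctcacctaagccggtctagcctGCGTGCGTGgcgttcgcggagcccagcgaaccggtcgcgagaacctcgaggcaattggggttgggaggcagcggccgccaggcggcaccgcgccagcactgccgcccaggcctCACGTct
Ddit4: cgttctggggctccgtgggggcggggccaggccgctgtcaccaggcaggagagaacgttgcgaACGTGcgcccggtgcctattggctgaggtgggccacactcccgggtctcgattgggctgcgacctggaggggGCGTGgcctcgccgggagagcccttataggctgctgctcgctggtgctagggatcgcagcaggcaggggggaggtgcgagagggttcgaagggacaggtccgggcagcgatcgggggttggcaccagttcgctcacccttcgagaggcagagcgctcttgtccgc
Car9: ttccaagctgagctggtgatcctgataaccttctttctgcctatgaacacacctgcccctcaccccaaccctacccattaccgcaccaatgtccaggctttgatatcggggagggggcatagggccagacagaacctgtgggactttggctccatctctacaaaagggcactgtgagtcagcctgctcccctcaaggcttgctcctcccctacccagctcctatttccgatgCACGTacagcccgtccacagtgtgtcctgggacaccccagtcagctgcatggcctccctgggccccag
These windows lie at chr8:45999801-46000100 (minus strand, Ankrd37), chr14:45318523-45318822 (minus, Ero1l, named Ero1a in RefSeq), chr9:121857747-121858046 (minus, Higd1a), chr10:59951721-59952020 (minus, Ddit4) and chr4:43506776-43507075 (plus, Car9).

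Each of the 7 matched genes had at least 1 match in a window. Across all 32851 windows of the table, 43.8% held ACGTG or GCGTG, 19.6% held ACGTG and 32.4% held GCGTG. Ankrd37 had 4 matches, the nearest beginning 6 bases before the start. Its GCGTG matches on the sense and the opposite strand share bases in the stretch CACGCGTG. Ero1l had 3 and Higd1a 3, and the 2 GCGTG matches on the sense strand of Higd1a overlap by 1 base. Ddit4 had 2 matches and Car9 had 1, which begins 18 bases before the start. Adm had 2 matches, both GCGTG on the opposite strand. Mxi1 has 3 annotated windows: the most upstream had 0 matches and the other two 1 each. No match lay within CACGTG, the E-box, which 7.15% of all windows hold. GC content was 56% to 80.3% in the windows of these genes, against a median of 52.7% over all windows, and a CG-containing motif is more frequent in GC-rich sequence. A match is a stretch of letters and not a measured binding site.

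A level below is in normalized reads, the deposited unit, which is close to the CPM scale. A log2 change is GOF minus WT of log2(normalized reads + 1) with its standard error (SE) from limma. The constant 1 makes it smaller than the plain ratio for low genes. In the table, 10 of 10 genes had all 4 GOF samples above all 4 WT samples, a pattern that 25.6% of all genes showed. Since this contrast chose the genes, nothing is read from this count. The median log2 change of the 10 was 2.41, and over all genes tested it was -0.002. In whole hearts, more RNA per cell and more cells with the RNA cannot be told apart.

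**Figure D1:**
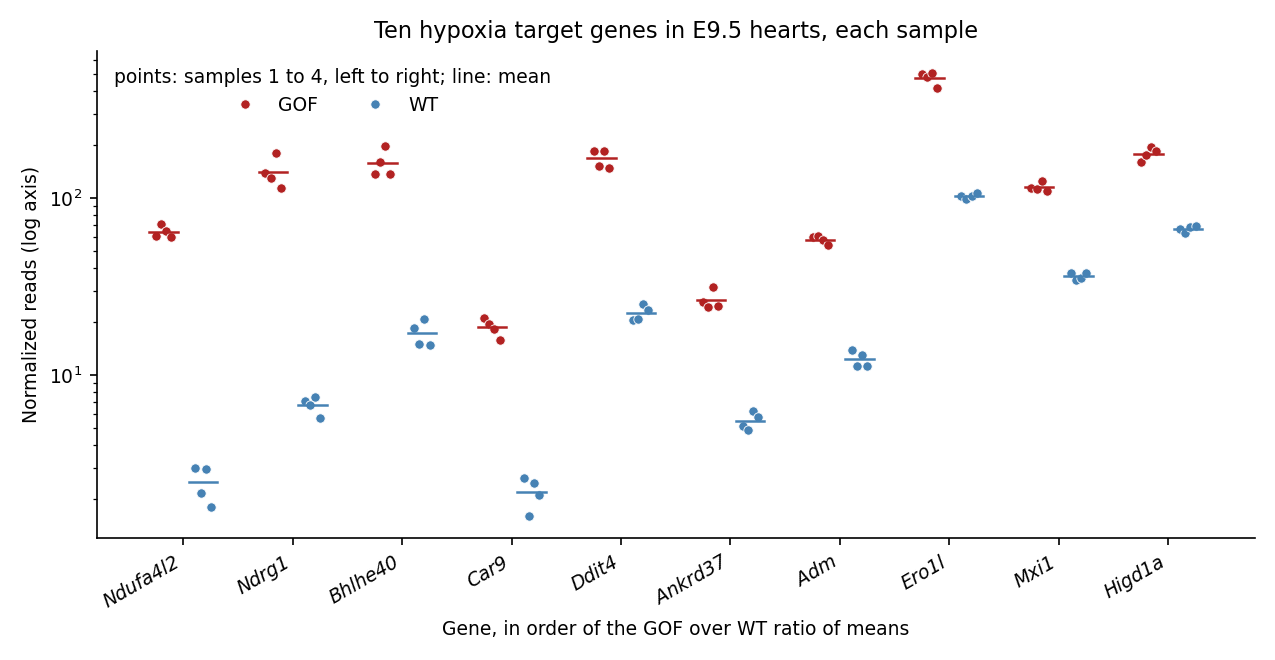
Normalized reads (log axis) of each of the 10 genes in the 4 GOF samples (red, left) and the 4 WT samples (blue, right); lines are group means. The GOF points stand clear of the WT points for every gene, from a 26.0-fold ratio of means in Ndufa4l2 down to 2.65-fold in Higd1a.

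Of the secreted and cell-surface products, Adm (ENSMUSG00000030790, chromosome 7, 110627661 to 110629820, plus strand, GRCm38) encodes adrenomedullin, a vasodilator and lymphangiogenic peptide that the developing heart and vessels need. Adm was at 59.9, 60.7, 57.8 and 54.5 normalized reads in GOF samples 1 to 4, against 13.8, 11.3, 13 and 11.3 in WT samples 1 to 4. The GOF samples lay close together, and the lowest was 3.96 times the highest WT sample. The log2 change was 2.15 (SE 0.07). Car9 (ENSMUSG00000028463, chromosome 4, 43506966 to 43513729, plus strand) encodes carbonic anhydrase 9, a membrane enzyme that turns CO2 into bicarbonate and protons outside the cell and is widely used as a hypoxia marker. It was at 20.9, 19.5, 18.3 and 15.7 normalized reads in GOF, against 2.63, 1.6, 2.46 and 2.09 in WT. No GOF sample was near a WT sample, but the WT levels rest on only 44, 25, 30 and 28 reads. Its log2 change of 2.62 (SE 0.12) was 1.71 with a constant of 5 and 2.83 with 0.5, while the ratio of means, which needs no constant, was 8.47.

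Ddit4 (ENSMUSG00000020108, chromosome 10, 59949669 to 59951834, minus strand) encodes REDD1, which restrains the growth kinase complex mTORC1 through TSC1 and TSC2. It was at 185, 152, 185 and 147 normalized reads in GOF, against 20.4, 20.8, 25.1 and 23.2 in WT. GOF samples 1 and 3 were the high pair, and even GOF sample 4 was 5.86 times the highest WT sample. The log2 change was 2.84 (SE 0.09). Mxi1 (ENSMUSG00000025025, chromosome 19, 53310518 to 53375810, plus strand) encodes a MAX partner that opposes MYC at its target genes. It was at 114, 113, 124 and 110 normalized reads in GOF, against 37.9, 34.5, 35.3 and 37.6 in WT. Both groups were tight, with a coefficient of variation of 5.16% in GOF and 4.6% in WT, and the log2 change was 1.64 (SE 0.05). Mxi1 has 9 annotated transcripts from more than 1 start, which a gene-level value cannot separate.

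Ndrg1 (ENSMUSG00000005125, chromosome 15, 66929318 to 66969640, minus strand) encodes a stress-responsive cytoplasmic protein that is phosphorylated by the kinase SGK1 and is needed for peripheral myelin. It was at 138, 129, 180 and 114 normalized reads in GOF, against 7.13, 6.74, 7.47 and 5.69 in WT. It varied more among GOF samples than any other of the 10, with a coefficient of variation of 19.9%, yet the lowest GOF sample was 15.3 times the highest WT sample. The log2 change was 4.17 (SE 0.13), behind only 2 genes of the table. Bhlhe40 (ENSMUSG00000030103, chromosome 6, 108660629 to 108666925, plus strand) encodes DEC1, a transcriptional repressor that also damps the circadian activators CLOCK and BMAL1. It was at 136, 160, 197 and 136 normalized reads in GOF, against 18.5, 14.9, 20.8 and 14.7 in WT. Sample 3 was the highest of its group in both genotypes, and the log2 change was 3.12 (SE 0.16).

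Ndufa4l2 (ENSMUSG00000040280, chromosome 10, 127514967 to 127517154, plus strand) encodes a mitochondrial protein related to NDUFA4 that is known to lower oxygen use when HIF induces it. It was at 60.7, 71.2, 65.4 and 60.5 normalized reads in GOF, against 2.99, 2.16, 2.95 and 1.8 in WT. The WT levels rest on 50, 34, 36 and 24 reads, and the log2 change of 4.25 (SE 0.11) was close to that of Ndrg1, which was the larger with a constant of 5 (Ndrg1 3.61, Ndufa4l2 3.22) and without GOF sample 2 (4.21 and 4.2). Higd1a (ENSMUSG00000038412, chromosome 9, 121848563 to 121858362, minus strand) encodes a small protein of the inner mitochondrial membrane that takes part in respiratory chain assembly. It was at 159, 174, 193 and 185 normalized reads in GOF, against 66.6, 63.3, 68.8 and 69.1 in WT. Higd1a had the smallest log2 change of the 10, 1.39 (SE 0.06), and the lowest GOF sample was still 2.3 times the highest WT sample.

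Ero1l (ENSMUSG00000021831, chromosome 14, 45283087 to 45318771, minus strand) encodes an oxidase of the endoplasmic reticulum that recharges protein disulfide isomerase for disulfide bond formation. It was at 500, 482, 509 and 420 normalized reads in GOF, against 102, 99.3, 103 and 106 in WT. WT hearts differed by little, with a coefficient of variation of 2.58%, and the log2 change was 2.21 (SE 0.05). Its mean was higher by 375 normalized reads in GOF. Ankrd37 (ENSMUSG00000050914, chromosome 8, 45996902 to 46005707, minus strand) encodes a small ankyrin repeat protein of the nucleus. It was at 25.8, 24.3, 31.4 and 24.4 normalized reads in GOF, against 5.12, 4.86, 6.26 and 5.77 in WT. Sample 3 was again the highest of its group in both genotypes, and the log2 change was 2.08 (SE 0.10).

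The order of abundance differed between the genotypes once levels were set per kilobase of annotated exons. In GOF, Ddit4 was at 95.3 ± 11.7 and Ero1l at 90.4 ± 7.65 normalized reads per kilobase (SD, n = 4 each), which did not differ beyond their spread. Ndufa4l2 (58.9 ± 4.6) and Higd1a (58.5 ± 4.92) came next and overlapped, followed by Adm (36.0 ± 1.71), Bhlhe40 (33.4 ± 6.08), Ndrg1 (21.3 ± 4.24), Ankrd37 (17.2 ± 2.17), Mxi1 (16.9 ± 0.871) and Car9 (8.08 ± 0.963). Adm and Bhlhe40 were within their spread of each other, and so were Ndrg1, Ankrd37 and Mxi1. In WT, Higd1a led at 22.0 ± 0.876 normalized reads per kilobase (SD, n = 4), ahead of Ero1l (19.4 ± 0.501), Ddit4 (12.8 ± 1.25), Adm (7.63 ± 0.767) and Mxi1 (5.33 ± 0.245). Below these, Bhlhe40 (3.66 ± 0.629) and Ankrd37 (3.57 ± 0.41) overlapped, Ndufa4l2 stood at 2.26 ± 0.537, and Ndrg1 (1.02 ± 0.117) and Car9 (0.953 ± 0.198) overlapped at the bottom. Ndufa4l2 thus stood near the top of the 10 in GOF and near the bottom in WT. Exons of all annotated transcripts were merged for the length, so a gene with long rare exons appears lower than its main transcript would.

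Summed over the 10 genes, GOF samples 1 to 4 held 1400, 1386, 1560 and 1268 normalized reads, against 277, 259, 285 and 277 in WT samples 1 to 4. That was 0.124% to 0.154% of the column in GOF and 0.0264% to 0.0287% in WT. Within GOF, sample 3 was the highest for 6 of the 10 genes and sample 4 the lowest for 8. Over all genes, sample 3 was the highest GOF sample for 24.3% and sample 4 the lowest for 21.9%. Within WT, sample 2 was the lowest for 6 of the 10 and the highest for 0. Over all genes, WT sample 2 was the lowest WT sample for 24.5% and the highest for 24.7%. With 4 samples in a group, no correlation between the genes is given.

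**Figure D2:**
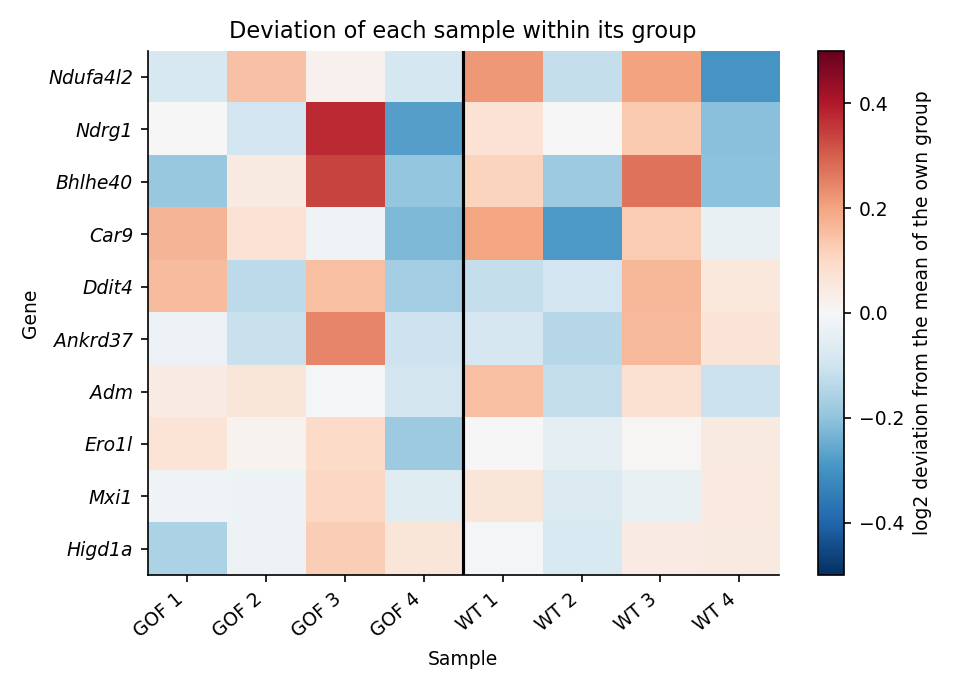
Deviation of each sample (columns, GOF then WT) from the mean of its own group on the log2(normalized reads + 1) scale, for the 10 genes (rows). GOF sample 3 is mostly above its group mean, with a median deviation of 0.11, and GOF sample 4 mostly below, with a median of -0.14.

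Close relatives of these genes, most of which are not known as HIF targets, gave a mixed picture. Of 18 listed paralogues 16 were tested, and 7 rose and 3 fell in GOF (limma, adjusted p under 0.05 over all genes), with a median log2 change of 0.26. Over all genes, 28.2% were called higher and 28.2% lower. Ndufa4, a subunit associated with cytochrome c oxidase and the paralogue of Ndufa4l2, fell to 170 ± 12.8 normalized reads in GOF, against 201 ± 2.64 in WT (SD, n = 4 each; log2 change -0.25, limma adjusted p = 0.000512). Per kilobase, Ndufa4l2 was at 58.9 normalized reads and Ndufa4 at 123 in GOF, and in WT they were at 2.26 and 146, so Ndufa4 was the more abundant of the pair in both. Ndrg2 rose by 1.40 on the log2 scale (limma adjusted p = 5.42e-11) and Ndrg4 by 0.35 (0.00114), while the log2 change of Ndrg3 was -0.26 (0.000479).

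Among the carbonic anhydrases, Car12, another membrane enzyme with an outward-facing active site, rose. It was at 28.9 ± 0.883 normalized reads in GOF and 2.90 ± 0.266 in WT (SD, n = 4 each; log2 change 2.94, limma adjusted p = 8.02e-13). Car14 rose by 0.46 (limma adjusted p = 5.53e-06). Car4 had a log2 change of 0.04 (95% interval -0.16 to 0.23), and Car2, an enzyme abundant in red cells, one of 0.23 (95% interval -0.98 to 1.43); neither passed. Adm2, which encodes the related peptide intermedin, was at 10, 9.29, 8.74 and 7.74 normalized reads in GOF, against 0.503, 0.533, 0.767 and 0.257 in WT. It is among the 7 paralogues that rose, but it met the filter of 1 normalized read in 4 samples through GOF alone. Nothing is read from that call. Its log2 change of 2.72 was 3.24 with a constant of 0.5 and 1.34 with 5. Bhlhe41, the paralogue of Bhlhe40, rose by 1.83 (limma adjusted p = 3.79e-09). Car12 and Bhlhe41 are also on the list of other hypoxia targets below, so both lists count them.

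The MXD family, to which Mxi1 belongs, split. Mxd1 rose by 0.39 (limma adjusted p = 0.00233), the log2 change of Mxd4 was -0.46 (1.77e-05), and Mxd3 at 0.29 did not pass (0.0649, and between 0.0354 and 0.05 without GOF sample 1 or 2 or without the trended prior). Ddit4l did not pass as deposited, but passed as lower after quantile normalization (-0.42, limma adjusted p = 0.0366) and without the trended prior (0.0434). Higd2a and Ero1lb did not pass either. For Ddit4l, Higd2a and Ero1lb the log2 changes as deposited were -0.31 (95% interval -0.65 to 0.02), -0.02 (-0.14 to 0.09) and -0.18 (-0.47 to 0.11). Whether a member and its paralogue differ in response was not tested, because the members were chosen on this contrast.

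Changes were small among the receptors, complexes and enzymes through which the products act. Of 21 listed partners 20 were tested, with 7 higher and 6 lower, a median log2 change of 0.02 and none past a 2-fold rise. The share called in either direction was near that of all genes (28.2% higher, 28.2% lower). For adrenomedullin, the receptor gene Calcrl had a log2 change of -0.27 (limma adjusted p = 0.00218) and Ramp2, whose product makes that receptor respond to adrenomedullin, one of -0.37 (0.000144). Ramp1, whose product turns the receptor to the related peptide CGRP, rose by 0.35 (0.00931). Ackr3, a scavenging receptor, had a log2 change of -0.02 (95% interval -0.17 to 0.12). Ramp2 was at 40.6 ± 3.85 normalized reads in GOF and 52.7 ± 2.16 in WT (SD, n = 4 each).

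Calcrl and Ramp2 are endothelial genes. Of 8 endothelial and endocardial markers, 5 were lower in GOF and 1 was higher, against 28.2% of all genes called in each direction. Log2 changes of the markers ran from -1.14 (Npr3) to 0.60 (Pecam1). The markers summed to between 686 and 835 normalized reads in GOF and between 879 and 944 in WT. Their part in the change of Calcrl and Ramp2 was not tested.

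In the pathway that Ddit4 restrains, Mtor (-0.27, limma adjusted p = 0.000105), Rptor (-0.24, 0.00015) and Tsc2 (-0.23, 0.000991) fell slightly on the log2 scale. Tsc1 (-0.02, 95% interval -0.12 to 0.08) and Rheb (0.06, 95% interval -0.02 to 0.14) did not pass. Of the network of Mxi1, Myc rose by 0.69 (limma adjusted p = 4.0e-07) and Mycn by 0.19 (0.000948), while the shared partner gene Max had a log2 change of -0.04 that did not pass (95% interval -0.15 to 0.06). Sgk1 rose by 0.25 (limma adjusted p = 0.0037). Among genes that work with Ero1l in disulfide formation, P4hb, the protein disulfide isomerase that is its main substrate, was at 935 ± 70.2 normalized reads in GOF and 565 ± 11.6 in WT (SD, n = 4 each; log2 change 0.72, limma adjusted p = 1.08e-08). Prdx4, a peroxiredoxin of the endoplasmic reticulum, rose by 0.41 (3.98e-06), Pdia3 had a log2 change of -0.30 (0.000162), and Pdia4 at -0.09 did not pass. Of the circadian activators that Bhlhe40 damps, Arntl (BMAL1) rose by 0.69 (limma adjusted p = 0.000604) and Clock at 0.12 did not pass (0.123, and 0.0497 without GOF sample 4).

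Other HIF targets outside glycolysis were higher almost throughout. Of 26 such genes, none of them a member, 25 rose and 0 fell (limma, 0 lower also at an unadjusted p under 0.05), with a median log2 change of 1.38. Over all genes, 28.2% were called higher and 28.2% lower. Some of the 26 genes were known to be raised when the list was written. Large rises were those of Stc2, a secreted stanniocalcin (3.08), Car12, Selenbp1, a selenium-binding protein whose standing as a HIF target is less settled (2.64), and Rora, a nuclear receptor (2.54). Stc2 was at 101 ± 10.3 normalized reads in GOF and 11 ± 0.936 in WT (SD, n = 4 each, limma adjusted p = 2.29e-13). Ccng2, a growth-restraining cyclin, rose by 2.19, Kdm3a, a histone demethylase, by 1.33 and Edn1, which encodes endothelin, by 1.65. Plin2, a lipid droplet protein, rose by 0.20 with overlap between GOF and WT samples (limma adjusted p = 0.0159), and this call was lost without WT sample 1 (0.0644). Angptl4, a secreted inhibitor of lipoprotein lipase, was at 4.57 ± 0.847 normalized reads in GOF and 5.38 ± 0.653 in WT (SD, n = 4 each). Its log2 change of -0.20 (95% interval -0.48 to 0.07) did not pass, but it was -0.32 and passed after quantile normalization (limma adjusted p = 0.044). GOF sample 3 was the highest GOF sample for 18 of these 26 genes, and WT sample 3 the highest WT sample for 17. Over all genes, the shares were 24.3% for GOF sample 3 and 25.2% for WT sample 3.

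Genes of the oxygen-sensing machinery went both ways. Of 11 genes 5 rose and 4 fell, with a median log2 change of 0.11, against 28.2% of all genes called in each direction. Egln3, a prolyl hydroxylase that is itself a HIF target, was at 140 ± 17.8 normalized reads in GOF and 11.1 ± 0.86 in WT (SD, n = 4 each; log2 change 3.55, limma adjusted p = 1.95e-12). Egln1, another prolyl hydroxylase, rose by 1.83 (limma adjusted p = 4.53e-13). Cited2, which competes with HIF for its coactivators, rose by 0.63, Hif3a by 0.59 and Vhl by 0.49. The mRNA of Hif1a, the main oxygen-regulated subunit, fell to 304 ± 15.6 normalized reads in GOF, against 380 ± 11 in WT (SD, n = 4 each; log2 change -0.32, limma adjusted p = 1.89e-05). Epas1, which encodes HIF-2 alpha, had a log2 change of -0.45 (limma adjusted p = 0.00017) and Egln2, a prolyl hydroxylase that hypoxia does not induce, one of -0.25 (0.000689). Hif1an, the asparaginyl hydroxylase, had a log2 change of -0.11 (limma adjusted p = 0.0404), and this call was lost when any sample other than GOF sample 2 or WT sample 2 was left out (0.0501 to 0.129). Arnt (0.11) and Arnt2 (-0.19) did not pass. Without GOF sample 4, Arnt passed as higher (0.15, limma adjusted p = 0.0265), and without GOF sample 2, Arnt2 passed as lower (-0.26, 0.0376). HIF is controlled chiefly through the stability of its protein, which was not measured.

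**Figure D3:**
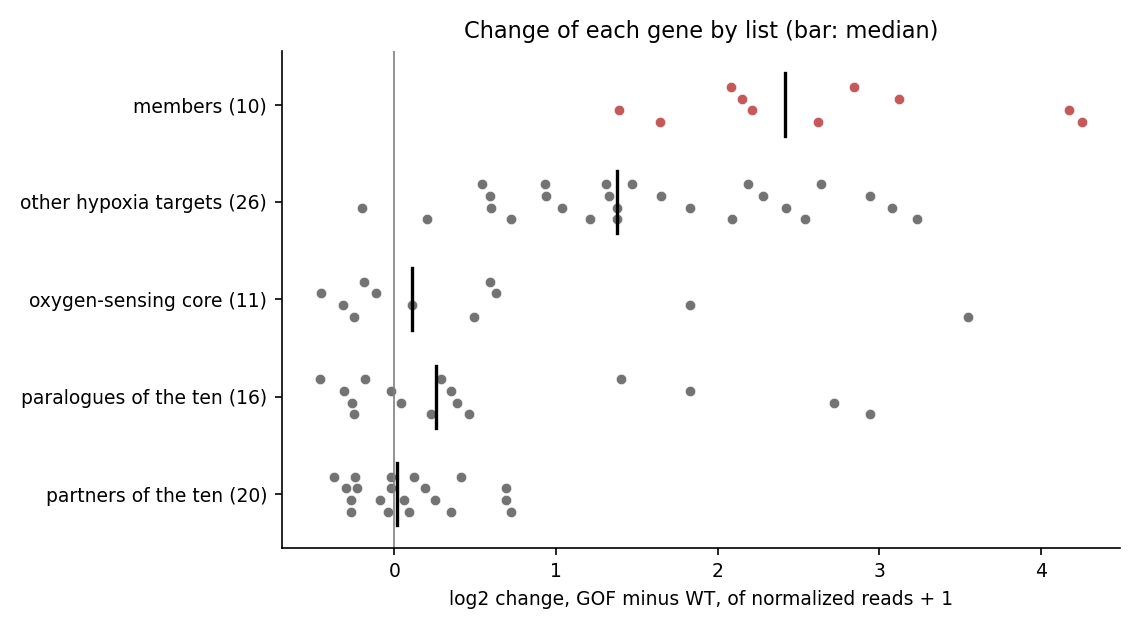
log2 change of normalized reads + 1 (GOF minus WT) of each gene in the 10 members (red) and 4 other lists (grey), with the median of each list as a bar. The medians are 2.41 for the members, 1.38 for 26 other hypoxia targets, 0.11 for 11 oxygen-sensing genes, 0.26 for 16 paralogues and 0.02 for 20 partners. Car12 and Bhlhe41 are drawn both as other hypoxia targets and as paralogues.

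Some of the 10 genes answer to other signals as well. Ddit4 is also induced in the stress response led by ATF4, and Ero1l by CHOP, the product of Ddit3. All 13 tested genes of that response, of 14 listed, rose in GOF and 0 fell (limma, 0 lower also at an unadjusted p under 0.05). Their median log2 change was 1.53. Over all genes, 28.2% were called higher and 28.2% lower. Of the 13, Chac1, Vldlr (3.02), Ddit3 (2.29) and Sesn2 (1.8) had the smallest p-values. Chac1 was under 1 normalized read in every WT sample and met the filter through GOF alone, so nothing is read from its call or p-value. Its log2 change of 3.95 was 4.47 with a constant of 0.5 and 2.34 with 5. Immediate early genes, which handling of tissue can induce, rose in 12 of 12 tested, with 0 lower (limma, 0 lower also at an unadjusted p under 0.05) and a median log2 change of 1.2. This count, too, stands beside 28.2% of all genes called in each direction. Of the 12, Ier3 rose by 3.88, Fos by 1.98, Junb by 1.90 and Atf3 by 1.53. Both lists were chosen with earlier results of these data known. The part of either response in the levels of the 10 genes was not tested.

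The makeup of the hearts was followed with marker lists. All 8 of 8 myocardial markers were in the table and summed to between 30467 and 36146 normalized reads in GOF and between 28353 and 32348 in WT (4 higher, 2 lower). Epicardial markers summed to between 234 and 363 in GOF and between 179 and 220 in WT (4 of 7 higher, 0 lower). Erythroid markers summed to between 2384 and 13384 in GOF and between 2335 and 6613 in WT, with 0 of 8 past the threshold. Of 9 neural and liver markers 3 were in the table, summing to at most 19.9 in GOF and 58.7 in WT. These marker counts stand beside 28.2% of all genes called higher and 28.2% called lower. The part of cell makeup in the levels of the 10 genes was not tested. GOF sample 1 stood apart from the other GOF samples on the second principal component (20.47 against -12.21 to 3.36). Transcripts of the mitochondrial chromosome made up 1.21% to 1.39% of the normalized reads in GOF and 3.11% to 3.31% in WT. Without these genes and at equal column totals, the median log2 change of the 10 genes was 2.35, against 2.41 as deposited. Any other part of this difference in the results was not tested. Leaving GOF sample 1 out gave a median log2 change of the 10 genes of 2.37.

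Several of the 10 genes share bases with a neighbour on the opposite strand, and the sources used here do not say whether reads were counted by strand. Exons of Ndufa4l2 and Shmt2, a mitochondrial serine enzyme gene, overlap by 32 bases (GENCODE M21). Shmt2 was higher in GOF too, at 271 normalized reads in GOF and 98.4 in WT. Exons of Mxi1 and Gm10197 overlap by 194 bases, and Gm10197 averaged 3.71 normalized reads in GOF and 0.923 in WT. Car9 and Gm12454 share 214 exonic bases, and Gm12454 averaged 2.90 in GOF and 1.90 in WT, which is close to Car9 itself in WT (2.20). Ankrd37 overlaps Ufsp2 by 57 exonic bases, and Ufsp2 was at 34.8 in GOF and 31 in WT. Other overlaps are with genes whose levels were not analysed here: 683 bases of Higd1a with Gm47112, 419 and 137 of Ndrg1 with Gm17035 and Gm2895, 349 of Ankrd37 with Lrp2bp and 118 of Bhlhe40 with 0610040F04Rik. The part of these overlaps in the values was not tested. Ddit4 and Ero1l overlap no annotated gene.

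The genes outside the 10 with the most similar profile were found by the root mean square difference from the mean profile of the 10 over the 8 samples, with levels set relative to the WT mean (log2) and leaving out genes averaging under 5 normalized reads. They were Rora (0.111), 1700001L05Rik (0.141), Slc2a3, a glucose transporter (0.162), Selenbp1 (0.164) and Grik3, a kainate receptor subunit (0.169). Slc2a3 was at 1337 ± 119 normalized reads in GOF and 209 ± 40.8 in WT (SD, n = 4 each). The profile is dominated by the difference between genotypes, so likeness over these samples says little about variation within a genotype.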

How the data were processed

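The authors deposited a table of normalized counts per gene, a signal that is never negative, for 4 GOF and 4 WT samples. RSEM 1.2.3, cutadapt 1.6, CASAVA 1.8.2 and FastQC, with genome build GRCm38, are named in the submitters' processing notes; the normalization is not given in the sources used here. Multiplied by a constant for its column, each value gave whole reads plus 0.5 (100% within 0.01). Those reads summed to 13182009 to 17927674 in GOF and 12287069 to 16697480 in WT. A separate check of whole reads could not be passed in 3 columns, so no count model was run.

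Symbols came from GENCODE M21 (13554 of 13637 IDs matched). The test was limma 3.58.1 (R 4.3.3) on log2 of the value plus 1, with a trended robust prior, two-sided and with no covariate, adjusted over all 13637 genes; a filter of 1 in 4 samples removed 0. The same code was tested on simulated data.

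The 10 genes and the lists were chosen with earlier results of these data known. The text names all 10 genes, genes of the lists of other targets, oxygen sensing, paralogues and partners, the 4 genes with the smallest p of the ATF4 and immediate early lists, all that fell there, and the 5 most similar profiles. Genes named as overlapping a member were added afterwards. Alternatives were other constants, filters, scalings and priors, a replicate block and leaving out each sample. Over genes averaging at least 5 normalized reads, same-numbered samples did not deviate together, so numbers were not treated as pairs.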

Additional observations from a re-analysis of the deposited data

Results flagged for a closer look

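In a group of 4, a sample is listed here when its gap to the nearest other sample over the range of the group exceeds Dixon's 95% critical value for 4 samples. Chance flags about 1 in 20 groups, and 10 of the 192 groups checked (96 genes in GOF and in WT) were found, about the number that chance gives. None of the 10 hypoxia target genes was among them. In GOF, sample 4 was low for Stc2 (85.6 normalized reads, others 104 to 108), sample 2 was low for Wsb1, of the list of other targets (351, others 392 to 399) and for Ndrg3 (36.8, others 40.3 to 40.8), and sample 3 was high for Ier3 (125, others 91.2 to 95.8). In WT, sample 3 was high for Ccng2 (32.1, others 29.8 to 30) and Stc1, of the same list (8.84, others 6.93 to 6.95). WT sample 1 was low for Angptl4 (4.41, others 5.68 to 5.77) and high for Chac1 (0.68, others 0.525 to 0.551) and Slc2a3 (270, others 186 to 191). WT sample 4 was low for Hif1a (364, others 384 to 386).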

How the results depend on the processing

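The log2 changes of the 10 genes kept their direction under all 16 alternatives. No other constant and no left-out sample could have reversed it, since GOF and WT samples of these genes did not overlap. Other filters, the other prior and the replicate block do not alter these log2 changes. Their range was widest for Car9 (1.71 to 2.83) and Ndufa4l2 (3.22 to 4.47), set by constants of 5 and 0.5, and narrowest for Higd1a (1.33 to 1.45), Mxi1 (1.54 to 1.66) and Ero1l (2.14 to 2.27). With the replicate block, which pairs samples by number only, 3678 genes were higher and 3677 lower, against 3839 and 3840 without it; deviations of same-numbered samples correlated at -0.235 to 0.048. Without mitochondrial genes at equal column totals 40.2% of called genes were higher, and after quantile normalization 43.3%, against 50% as deposited. The count of other hypoxia targets that fell was 1 after quantile normalization (Angptl4) instead of 0. Leaving out 1 sample gave 24 or 25 of these higher, 5 or 6 oxygen-sensing genes higher and 3 to 5 lower, and 7 to 9 partners higher. Genes near the threshold at this number of samples are uncertain, and Car9 and Ndufa4l2 in WT rest on few reads.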
